A study of Homo sapiens with 4 samples.

Results

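The NRF2 pathway and the first steps of glutathione synthesis were followed through 9 genes: the transcription factor gene NFE2L2, its repressor KEAP1, and the targets GCLC, GCLM, NQO1, TXNRD1, SRXN1, HMOX1 and SLC7A11. They were chosen by name, as the factor, its repressor and targets outside the aldo-keto reductase, glutathione transferase and ferritin families. Earlier results of these data were known when they were chosen. Of the 9, 8 had a value among the 18398 RefSeq transcripts listed for each library, and TXNRD1 was not analysed here. RNA sequencing was done on Huh7 and Huh1, established human hepatocellular carcinoma cell lines. Each line was transfected with an siRNA against ODC1, the gene of ornithine decarboxylase, which starts polyamine synthesis, or with a negative control (NC) siRNA. The 4 groups were Huh7 with ODC1 siRNA, Huh7 with NC siRNA, Huh1 with ODC1 siRNA and Huh1 with NC siRNA, with 1 library each. The labels give no siRNA sequence, time or dose, so a response to lower ODC1 and any other effect of the siRNA cannot be told apart.

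NRF2, the protein of NFE2L2, is held in the cytoplasm by KEAP1, which feeds it to a CUL3 ubiquitin ligase for degradation. When electrophiles or oxidants modify KEAP1, NRF2 builds up, pairs with a small MAF protein in the nucleus and binds antioxidant response elements near its target genes. Control is therefore largely at the level of protein, and the mRNA of the factor need not follow its activity. Among the targets, GCLC and GCLM encode the catalytic and modifier subunits of glutamate-cysteine ligase, which makes the rate-limiting step of glutathione synthesis, and SLC7A11 encodes the cystine transporter xCT that supplies its cysteine. NQO1 is a quinone reductase, SRXN1 repairs over-oxidised peroxiredoxins, and HMOX1 breaks down heme. In the liver these genes belong to the defence against reactive drugs and metabolites.

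The core of the antioxidant response element, TGACNNNGC, was searched on both strands in RefSeq promoter windows (GRCh38.p14), from 250 bases before to 50 bases after the gene start. Of 35116 promoters, 13.3% hold it. Windows were given for 7 of the 9 genes, and for 6 of the 8 measured ones; HMOX1 and SLC7A11 had none. Among the measured genes the GCLM window alone holds a match, 34 bases before the start. Of 25 further NRF2 targets with a value, 17 had a window and 7 of these hold it, including ME1 and PIR. The sites of these genes are shown because GCLM and ME1 were the NRF2 targets that passed the siRNA test and PIR was an exception between the lines. Each runs 5′ to 3′ along the gene, with the match in capitals. All 3 genes lie on the minus strand, the sites being chr1:93909450-93909470 for GCLM, chr6:83431174-83431194 and chr6:83431026-83431046 for ME1, which has 2 matches, and chrX:15493293-15493313 for PIR.
GCLM: atttctGCTTAGTCAttgtct
ME1, before the start: ctgccaTGACTCAGCgcttct
ME1, after the start: cagtcaGCACCGTCAccccag
PIR: cgaagcGCTGAGTCAcggtga
The matches of GCLM, of PIR and of ME1 after the start lie on the opposite strand, where they read TGACTAAGC, TGACTCAGC and TGACGGTGC. The PIR match, 26 bases after the start, thus has the letters of the ME1 match 137 bases before the start, and not those of the ME1 match 11 bases after it. A match describes the letters of the window only. Sequence outside the window was not searched, so a window without a match does not mean that the gene lacks the element.

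Sequencing depth, worked out from the size of the smallest value steps, lay between 10215332 and 13384836 reads per library. ODC1, the targeted gene, was at 7.50 RPKM with ODC1 siRNA against 167 RPKM with NC siRNA in Huh7, and at 25.01 against 103 RPKM in Huh1, which is the direction of the labels. All 10 hepatocyte markers were above 1 RPKM in each library. None of the 4 endothelium markers with a value reached 1 RPKM, and CDH5 and TEK were at 0 in all 4 libraries. Of the 5 blood cell markers, 2 reached 1 RPKM, CD68 and LYZ, and PTPRC was at most at 0.147 RPKM. The blood cell list summed to 21.5 and 14.9 RPKM in Huh7 with ODC1 and NC siRNA, against 26.4 and 24.4 RPKM in Huh1. Its sum joins markers that went opposite ways. CD68 was at 6.05 and 3.71 RPKM in Huh7, against 24.8 and 23.3 RPKM in Huh1. LYZ was at 15.3 and 11.1 RPKM in Huh7, against 1.36 and 0.855 RPKM in Huh1. RPKM scales reads by transcript length and by library depth, so levels can be compared between genes. A level is a mean over all cells, and a change in some cells and a smaller change in all cells cannot be told apart.

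The first question was how the 2 lines differ. Huh7 held far less mRNA of the NRF2 targets than Huh1, while the mRNA of the factor itself was close in the lines. Each line was represented by its 2 libraries, which differ in siRNA and are not replicates. The difference, Huh7 minus Huh1 on log2(RPKM + 1), was tested with limma in a fit to 12039 genes. The fit held siRNA as a second term. The lines differ widely: 73.9% of all genes tested passed the adjusted p threshold of 0.05, 30.8% as lower and 43.1% as higher in Huh7. The members were therefore read by size as well as by call.

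NFE2L2 was at 102 RPKM with ODC1 siRNA and 97.8 RPKM with NC siRNA in Huh7, against 111 and 129 RPKM in Huh1. Both Huh7 libraries were lower than both Huh1 libraries, by a narrow margin. The difference of -0.25 (SE 0.079) passed in limma (adjusted p = 0.0177), but not without the intensity trend (adjusted p = 0.0881), without the siRNA term (adjusted p = 0.0664) or without a filter on low values (adjusted p = 0.220). KEAP1, the repressor, was at 27.1 and 29.3 RPKM in Huh7 with ODC1 and NC siRNA, against 44.9 and 55.1 RPKM in Huh1. Both Huh7 values lay below both Huh1 values, with a difference of -0.80 (SE 0.082, limma adjusted p = 3.06e-05). The factor stood above its repressor in each library, at 3.77 and 3.33 times its RPKM in Huh7 and 2.47 and 2.33 times in Huh1, with ODC1 and NC siRNA in that order.

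The 3 genes that supply glutathione were much lower in Huh7. GCLM, the modifier subunit, was at 21.3 RPKM with ODC1 siRNA and 30.9 RPKM with NC siRNA in Huh7, against 257 and 330.0 RPKM in Huh1. Its difference was -3.45 (SE 0.071, limma adjusted p = 2.60e-09). GCLC, the catalytic subunit, was at 29.2 and 27.2 RPKM in Huh7, against 158 and 169.8 RPKM in Huh1, a difference of -2.50 (SE 0.077, limma adjusted p = 2.10e-08). The 2 subunit genes thus stood at unequal ratios: GCLM was 0.729 and 1.14 times GCLC in Huh7 with ODC1 and NC siRNA, against 1.63 and 1.94 times in Huh1. SLC7A11, the cystine transporter, was at 5.0 and 4.65 RPKM in Huh7, against 62.0 and 53.0 RPKM in Huh1. It had the lowest level of the members in both Huh7 libraries and in Huh1 with NC siRNA. The SLC7A11 difference was -3.33 (SE 0.091, limma adjusted p = 1.05e-08).

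The detoxifying enzymes were lower in Huh7 as well, and HMOX1 differed most. It was at 6.03 RPKM with ODC1 siRNA and 6.39 RPKM with NC siRNA in Huh7, against 166 and 206 RPKM in Huh1. With NC siRNA, Huh7 held 3.10% of the Huh1 level (95% counting interval 2.57% to 3.70%), and with ODC1 siRNA 3.63% (2.94% to 4.44%). The Huh7 libraries held 98 HMOX1 reads with ODC1 siRNA and 124 with NC siRNA, and the intervals account for counting error alone. The HMOX1 difference of -4.69 (SE 0.087, limma adjusted p = 1.59e-09) ranked 61st from the lowest of 12039 genes. NQO1, the highest member in all 4 libraries, was at 121 and 129.9 RPKM in Huh7 against 820.5 and 773 RPKM in Huh1 (-2.66, SE 0.065, limma adjusted p = 6.03e-09). SRXN1 was at 47.7 and 55.0 RPKM in Huh7 against 221 and 287 RPKM in Huh1 (-2.27, SE 0.070, limma adjusted p = 2.13e-08).

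**Figure D1:**
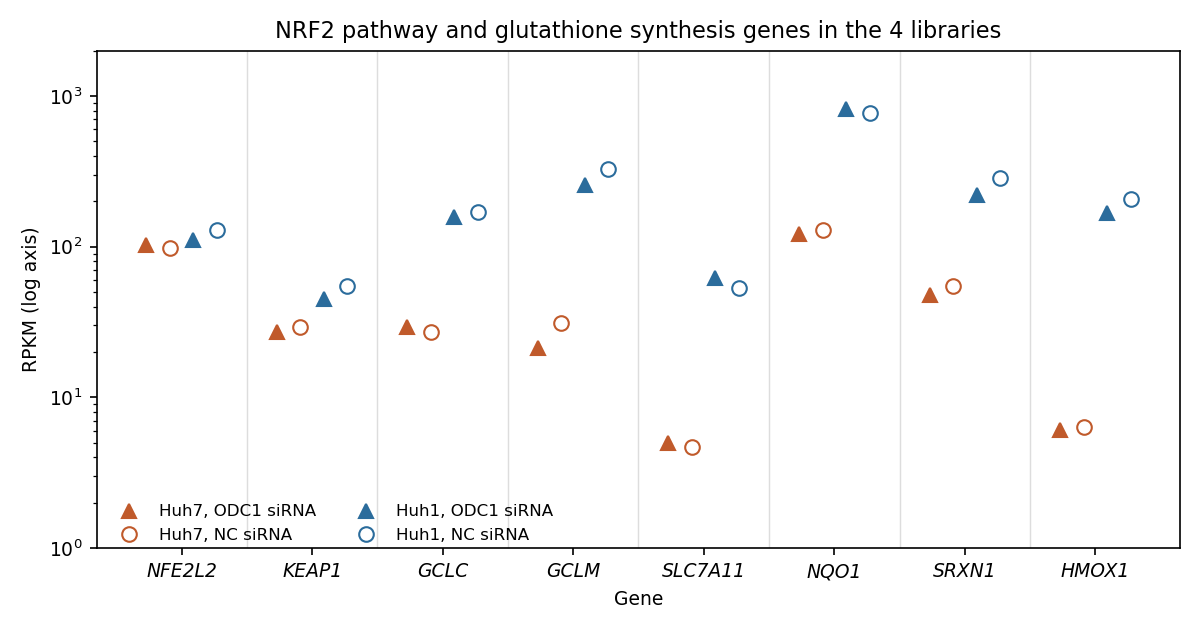
RPKM of the 8 measured genes on a log axis, 1 point per library (triangles, ODC1 siRNA; open circles, NC siRNA; orange, Huh7; blue, Huh1). The points of NFE2L2 lie close together, between 97.8 and 129 RPKM, while the Huh7 points of the 6 targets lie well below their Huh1 points.

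All 8 genes were lower in Huh7 by the test, where 30.8% of all genes were. At least 4-fold lower, with the adjusted p under 0.05, were the 6 targets (6 of 8 members), against 3.59% of all genes tested. The same 6 were the members at least 2-fold lower, as were 10.3% of all genes. The median difference of the members was -2.58, against 0.13 for all genes tested, and the 6 targets ranked between 61st and 327th from the lowest. With ODC1 siRNA alone, 8 of 8 members were lower in Huh7, as were 44.1% of all genes, and 6 were at least 2-fold lower, as were 11.1%. With NC siRNA alone, 8 of 8 were lower, as were 42.8% of all genes, and 6 at least 2-fold lower, as were 10.2%. A change of 2-fold in either direction was seen in 27.2% of genes with either siRNA. Quantile normalization moved the median over all genes with NC siRNA to 0.015, from 0.14 without it, and each member stayed lower in Huh7.

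**Figure D2:**
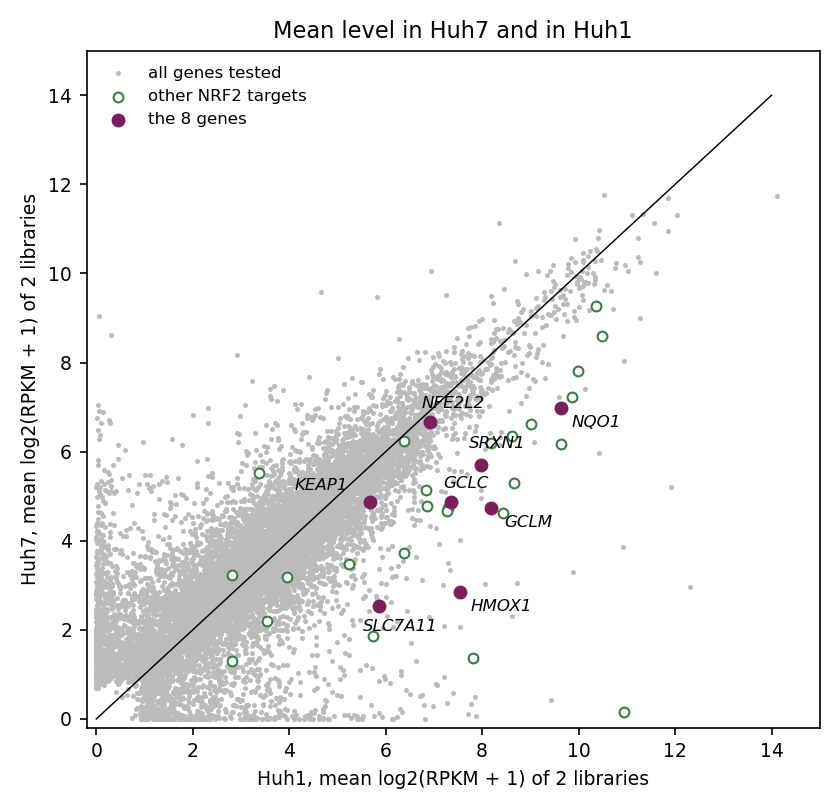
Mean log2(RPKM + 1) of the 2 libraries of Huh7 (vertical axis) and of Huh1 (horizontal axis) for 12039 genes (grey), 25 other NRF2 targets (green circles) and the 8 measured genes (purple). The line marks equal levels; NFE2L2 lies just below it and the 6 targets far below it.

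The other genes of the pathway were taken from lists, described by counts beside those of all genes. Of 25 other NRF2 targets tested, 22 were lower and 2 higher in Huh7 than in Huh1, against 30.8% and 43.1% of all genes tested. At least 4-fold lower by the same test were 14 of the 25, against 3.59% of all genes. The median difference of this list was -2.17, against 0.13 for all genes tested. Genes of the pentose phosphate pathway, which makes NADPH, were among the 14. PGD was at 143 RPKM with ODC1 siRNA and 155 RPKM with NC siRNA in Huh7, against 886 and 989 RPKM in Huh1 (-2.65, SE 0.056). TALDO1 differed by -2.41 and TKT by -2.27. The drug exporters ABCC2 (-3.36) and ABCC3 (-3.86) and the epoxide hydrolase EPHX1 (-3.80) were lower as well. CES1, a carboxylesterase, was at 0.146 and 0.0817 RPKM in Huh7 against 1962 and 1991 RPKM in Huh1, and TRIM16L was at 1.36 and 1.84 RPKM against 172 and 295 RPKM. Both have close copies in the genome, so their values are uncertain.

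The exceptions were few. PIR, an iron-binding protein gene, was at 47.4 and 43.1 RPKM in Huh7 with ODC1 and NC siRNA, against 10.1 and 8.72 RPKM in Huh1, and was higher in Huh7 (2.15, SE 0.085). ME1, which shares the PIR letters at 1 of its 2 matches, is the malic enzyme that makes NADPH and was lower in Huh7 (-2.07, SE 0.073). The exporter ABCC4 was higher in Huh7 by 0.43 (limma adjusted p = 0.0173). GSR, which recycles oxidised glutathione, was at -0.15 and did not pass (limma adjusted p = 0.0755).

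In the neighbouring lists the calls went both ways, beside 30.8% of all genes tested called lower in Huh7 and 43.1% called higher. Of 17 tested genes of glutathione turnover other than the members, 7 were lower and 5 higher in Huh7, with a median of -0.04. GSS, which adds glycine in the second step of glutathione synthesis, was at 52.0 and 51.7 RPKM in Huh7 against 47.3 and 45.5 RPKM in Huh1 and did not pass (0.16, limma adjusted p = 0.0791). SLC3A2, the heavy chain that carries SLC7A11 to the membrane, was at 101 RPKM in both Huh7 libraries, against 118 and 114 RPKM in Huh1 (-0.20, SE 0.064, limma adjusted p = 0.0211). Of 14 genes of NRF2 control, 5 were lower and 8 higher (median 0.37). Among these SQSTM1, which draws KEAP1 into autophagy and is itself an NRF2 target, was lower (-2.17), as was MAFG (-1.76), while DPP3, a KEAP1 binding protein, was higher (2.44). Of 13 genes of heme metabolism, 6 were lower and 4 higher (median -0.04). ATF4 is the factor of the amino acid response that also drives SLC7A11. Of 15 genes of the ATF4 list, which holds ATF4 and its targets, 4 were lower and 5 higher (median 0.04). ATF4 itself was among the higher ones (0.64). Of 10 genes of the thioredoxin system, 6 were lower and 3 higher (median -0.46), with thioredoxin itself (TXN) at -1.91. The lists share genes: SQSTM1, MAFG, TXN, PRDX1, GSR, BLVRB and FECH also stand on the list of other targets, and CHAC1 and SLC3A2 on that of ATF4.

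**Figure D3:**
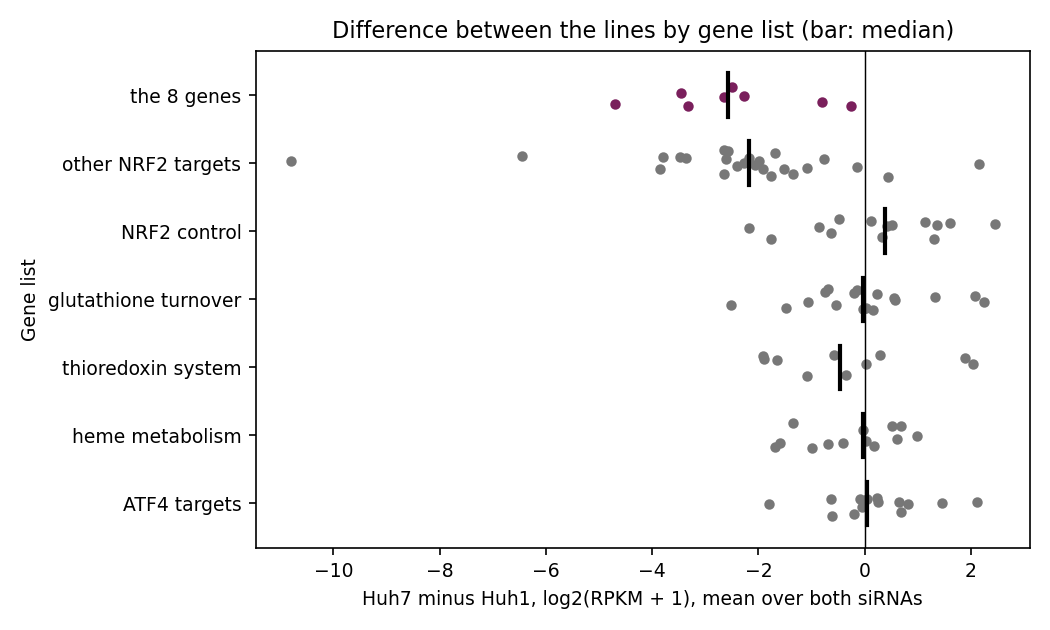
Difference Huh7 minus Huh1 on log2(RPKM + 1), over both siRNAs, for each tested gene of 7 lists (points) with the median of each list (black bar). The medians of the 8 members and of the other NRF2 targets are -2.58 and -2.17, and those of the other 5 lists lie between -0.46 and 0.37.

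Marker genes differed between the lines too, where 73.9% of all genes tested did. The 6 fibroblast markers summed to 370.4 and 284 RPKM in Huh7 with ODC1 and NC siRNA, against 15.7 and 12.1 RPKM in Huh1, with COL1A1 and LUM making up most of the Huh7 sum. The 10 hepatocyte markers summed to 2664 and 3358 RPKM in Huh7, against 4677 and 5375 RPKM in Huh1. Of these 10, 7 were lower and 3 higher in Huh7, with ALB the lower one of highest level and AFP higher by 4.93. Of the 5 bile duct markers, 1 was lower (KRT7, -5.77) and 4 were higher, KRT19 by 2.94. Their part in the differences of the members was not tested.

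The second question was whether the ODC1 siRNA changed these genes. Within a line there was 1 library per siRNA, so the values have no replicate check. No member changed 2-fold in either line, where 0.771% of genes did in Huh7 and 0.0825% in Huh1. Over both lines, with the line as a second term in the same limma fit, GCLM fell and no other member passed. Of all 12039 genes, 2.12% passed, 0.615% as lower and 1.5% as higher, and 2286 had an unadjusted p under 0.05, as did 3 of the 8 members (GCLM, SRXN1 and KEAP1).

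GCLM stood at 68.9% of its NC level in Huh7 (95% counting interval 63.8% to 74.4%) and at 77.8% in Huh1 (76.2% to 79.5%), from the RPKM values above. Each line thus had less GCLM mRNA with ODC1 siRNA. Its log2 differences were -0.52 in Huh7 and -0.36 in Huh1, and the mean of -0.44 (SE 0.071) passed (limma adjusted p = 0.0265). Its partner GCLC did not pass, with log2 differences of 0.099 in Huh7 and -0.11 in Huh1 (mean -0.0036, 95% interval -0.18 to 0.17, limma adjusted p = 0.987). The call of GCLM rests on 1 residual degree of freedom and on the spread of other genes. It was kept under 4 of 9 settings, and was lost with quantile normalization (adjusted p = 0.0674), a pseudocount of 0.1 (0.0543), no filter (0.517), no intensity trend (0.230) or no line term (1.00), where the difference itself stayed between -0.44 and -0.45.

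SRXN1 was also lower in both lines without passing. It stood at 86.8% of the NC level in Huh7 (counting interval 80.6% to 93.4%) and at 76.9% in Huh1 (74.5% to 79.4%). Its mean log2 difference was -0.29 (SE 0.070, 95% interval -0.45 to -0.13, limma adjusted p = 0.0772), and it passed with upper quartile scaling (adjusted p = 0.0431). KEAP1 had log2 differences of -0.11 in Huh7 and -0.29 in Huh1 (mean -0.20, limma adjusted p = 0.235). HMOX1 had -0.07 and -0.31 (mean -0.19, limma adjusted p = 0.279); its Huh7 ratio of 94.4% has a counting interval of 71.7% to 124%, so a change of this size was not detectable there at this depth.

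The remaining members did not move one way. SLC7A11 was the only member above its NC level in both lines, at 108% in Huh7 (counting interval 95.1% to 122%) and 117% in Huh1 (113% to 121%), with a mean log2 difference of 0.15 (95% interval -0.053 to 0.36, limma adjusted p = 0.401). NFE2L2 had log2 differences of 0.063 in Huh7 and -0.21 in Huh1 (mean -0.073, limma adjusted p = 0.665). NQO1 had -0.10 in Huh7 and 0.086 in Huh1 (mean -0.0071, 95% interval -0.16 to 0.14, limma adjusted p = 0.969). In all, 5 of the 8 members were lower with ODC1 siRNA in Huh7, as were 50.5% of all genes, and 6 in Huh1, as were 44.9%. In both lines 4 were lower, as were 30.0% of all genes tested. The medians over the members were -0.086 in Huh7 and -0.25 in Huh1, beside -0.0020 and 0.017 for all genes.

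**Figure D4:**
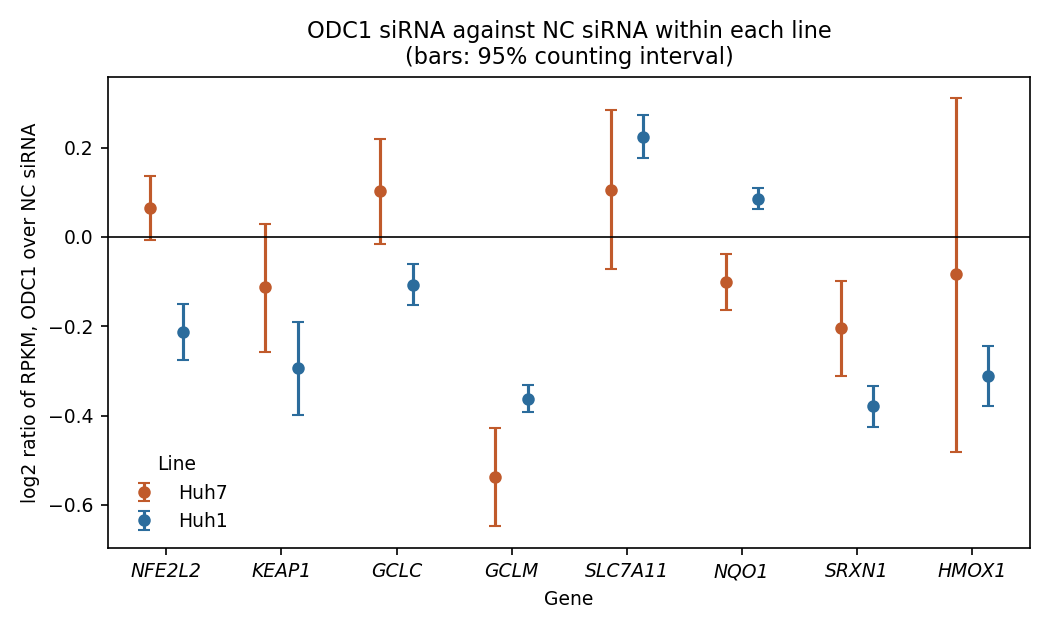
Log2 ratio of RPKM, ODC1 over NC siRNA, for the 8 measured genes in Huh7 (orange) and Huh1 (blue), with 95% counting intervals as bars. GCLM and SRXN1 lie below 0 in both lines with intervals that leave out 0, and the HMOX1 interval in Huh7 is the widest and rests on the fewest reads.

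Among the other pathway lists, 2 genes passed the siRNA test, which 2.12% of all genes tested passed, 1.5% as higher. An unadjusted p under 0.05 in limma was reached by 2286 of all 12039 genes tested, beside which the list counts below stand. ME1 was at 31.5 RPKM with ODC1 siRNA and 22.4 RPKM with NC siRNA in Huh7, and at 131 and 101 RPKM in Huh1, and rose by 0.42 (SE 0.073, limma adjusted p = 0.0327). It was thus 1 of 25 other NRF2 targets to pass, in the direction opposite to GCLM, and 9 of the 25 had an unadjusted p under 0.05. Its call held in 3 of 9 settings (adjusted p between 0.0155 and 1.00). On that list TRIM16L was at -0.52, ABCC4 at -0.36 and CBR3 at -0.25 without passing. PRDX4, the peroxiredoxin of the endoplasmic reticulum, was at 246 and 142 RPKM in Huh7 with ODC1 and NC siRNA, and at 55.2 and 36.2 RPKM in Huh1. It rose by 0.69 (SE 0.073, limma adjusted p = 0.0078), as 1 of 10 genes of the thioredoxin system, of which 3 had an unadjusted p under 0.05. Its call held in 6 of 9 settings (adjusted p between 0.00134 and 1.00) and was lost with no filter, no intensity trend or no line term. In that list MSRA was at 0.299, PRDX2 at -0.22 and TXNIP at 0.18 without passing.

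Of all 12039 genes tested, 2.12% passed the siRNA test in limma and 2286 had an unadjusted p under 0.05. None of the 14 genes of NRF2 control passed in limma (2 had an unadjusted p under 0.05). Of these, NFE2L1, a related factor, was at 0.35 (limma adjusted p = 0.0576), MAFF at 0.26, GSK3B at 0.23 and PGAM5 at -0.11. None of the 17 genes of glutathione turnover passed in limma (3 at an unadjusted p under 0.05), with CHAC1, which degrades glutathione, at -0.44, GLRX2 at 0.28, GSR at -0.21 and ANPEP at -0.20. Nor did any of the 13 genes of heme metabolism (4 at an unadjusted p under 0.05) or the 15 genes of the ATF4 list (3). In these lists PPOX was at 0.34, CPOX at -0.28 and BLVRA at -0.23, and ATF3 was at 0.29, VLDLR at 0.23 and DDIT3 at 0.21. Of the 10 hepatocyte markers, 9 had a mean difference below 0 and 7 an unadjusted p under 0.05. Over all genes tested, the median of the mean difference was 0.0063. Of the markers, 1 passed as lower (ALB, -0.32) and 1 as higher (TTR, 0.47), as did 0.615% and 1.5% of all genes. The median difference of these markers was -0.36 in Huh7 and -0.058 in Huh1, beside -0.0020 and 0.017 for all genes. Of the 4 tested fibroblast markers, 1 rose (LUM, 0.39). Their part in the GCLM and ME1 differences was not tested.

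The genes whose pattern over the 4 libraries lay nearest to each member, by the Euclidean distance between centred log2(RPKM + 1) values, were then looked up among 9508 genes that reached 5 RPKM somewhere. The nearest to GCLM was SULT1E1, an estrogen sulfotransferase gene, at a distance of 0.253, with 0.223 and 0.371 RPKM in Huh7 and 11.2 and 14.5 RPKM in Huh1 with ODC1 and NC siRNA. ASS1, of the urea cycle, was the third nearest (0.273). For HMOX1 it was MAGED1 (0.155), for SRXN1 DUSP2 (0.0317), for NFE2L2 LYRM7 (0.0374), for KEAP1 FAM174A (0.060), for GCLC ST3GAL1 (0.088) and for SLC7A11 FAM133A (0.131). Some of these genes were near 0 in Huh7, where the 1 added before the log shrinks a fold difference. DUSP2 was at 0 and 0.146 RPKM in Huh7 against 3.54 and 5.05 RPKM in Huh1. FAM133A was at 0 in both Huh7 libraries, and MAGED1 at 0.392 and 0.448 RPKM. LYRM7 and FAM174A were higher there, at 3.89 and 3.48 RPKM with ODC1 siRNA. A small distance is thus not an equal fold difference, and these likenesses describe 4 libraries only.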

How the data were processed

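Per the labels' protocols, total RNA went into Illumina TruSeq RNA libraries. The submitters' processing notes name the build hg19 and the tools CASAVA 1.8.2 and TopHat2 2.0.9. How reads were counted, on which annotation and whether by strand is not given in the sources used here. The deposited values were read as RPKM per RefSeq transcript computed by the authors, with no header, so reads of antisense or near-identical genes may be mixed. No count model was used.

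Values were analysed as log2(RPKM + 1). The model, in limma 3.58.1 under R 4.3.3, held a term for the line and another for the siRNA, with an intensity trend. It covered the 12039 genes that reached 1 RPKM somewhere, with Benjamini-Hochberg adjustment over all of them and a threshold of 0.05. It has 1 residual degree of freedom and 7.42 prior ones, so the errors come mostly from other genes. No label says that libraries came from separate cultures, and no group has a second library. The residual is thus the difference between the lines in their siRNA response. The p-values use this and the spread of other genes, and do not measure variation between replicate cultures. On simulated data it recovered the changed genes in most cases. In most runs, though, unchanged genes made up more of the calls than the threshold allows, so a call near the threshold is weak. The simulation kept unchanged genes at the same mean in all 4 libraries, with a fixed dispersion. It held no broad difference between the lines and no difference in their siRNA response, so its recovery may not carry over to these data. Within a line, or with one siRNA, a 2-fold rule was used, with no p-value.

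Depth was recovered from the value of 1 read and GENCODE release 29 lengths. Of the low values compared (under 0.3 RPKM), 48.8% to 51.4% stood in whole-number ratios to Huh1 with NC siRNA in the other 3 libraries, so others are fractions of reads. Member reads used the length near GENCODE's at which they were whole or simple fractions (tolerance 0.01), or the GENCODE length. For NFE2L2, GCLC, GCLM, NQO1 and SLC7A11 no such length was found and the GENCODE length was used. Their read counts, and so their counting intervals, are approximate. Counting intervals are exact Clopper-Pearson intervals at 95%.

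The members, the gene lists and the tests were chosen with earlier results of these data known. The text names all members and, from each list, the genes that passed the siRNA test or up to 4 with the largest siRNA change. It also gives the gene nearest to 7 of the members and genes picked after their values were seen, to describe the lines. TXNRD1 and some other genes that these rules select are not reported here. Alternatives were 2 other scalings, a pseudocount of 0.1, other filters, other variance trends, dropped terms, a 1.5-fold rule and each library left out.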

Additional observations from a re-analysis of the deposited data

Results flagged for a closer look

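In 3 members the log2 differences with ODC1 siRNA against NC siRNA had opposite signs in the lines, each line being 1 library per siRNA, and no test of this contrast between Huh7 and Huh1 was made. NFE2L2 was at 0.063 in Huh7 and -0.21 in Huh1. GCLC was at 0.099 in Huh7 and -0.11 in Huh1. NQO1 was at -0.10 in Huh7 and 0.086 in Huh1. The counting intervals of the Huh7 ratios of NFE2L2 and GCLC include no change, and those of NQO1 leave it out in both lines. The differences were not tested.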

How the results depend on the processing

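The lower levels of KEAP1 and the 6 targets in Huh7 passed under each of the 9 settings of the limma fit, and NFE2L2 under 6 of them. The call of GCLM with ODC1 siRNA was the only call among members and depended on the setting: the number of members called lower was 1 with the settings as reported, 2 with upper quartile scaling, and 0 with quantile normalization, a pseudocount of 0.1, no filter, no intensity trend or no line term. Over all genes, 255 were called for the siRNA, against 52 with quantile normalization, 485 with upper quartile scaling, 54 with a pseudocount of 0.1, 108 with a filter at 5 RPKM and 0 with no filter, no intensity trend or no line term; the cause was not tested. At 0 calls, limma still gave an unadjusted p under 0.05 for 1725 genes with no filter, 1830 without the trend and 22 without the line term. GCLC, at -0.0036, stood at 0.013 with quantile normalization. The 2-fold rule took 88 genes in Huh7 and 9 in Huh1, against 236 and 45 with a pseudocount of 0.1 and 650 and 150 with a 1.5-fold rule. Between the lines it took 3225 genes with ODC1 siRNA and 3239 with NC siRNA, against 5652 and 5676 with the 1.5-fold rule. The line term pairs the 2 libraries of each line and is the only pairing. No further pairing was possible, because each line had 1 library per siRNA and the labels give no replicate numbers. Leaving out a library leaves 0 residual degrees of freedom, so the value is that of the other line or siRNA, with no test. For GCLM it then lay between -0.52 and -0.36. Depth limits HMOX1 in Huh7 most.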
